A study of Mus musculus with 6 samples.

Results

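Dendritic cells are the immune cells that sense microbes and show antigens to T cells. The 10 genes described here are known from their 2 main branches, and all 10 were found by symbol among the 22551 distinct symbols of the deposited expression matrix, each on 1 row. Siglech, Ccr9, Pacsin1, Runx2, Tcf4, Ly6d and Irf8 are used by plasmacytoid dendritic cells, the producers of type I interferon. Xcr1, Clec9a, Batf3 and again Irf8 are used by type 1 conventional dendritic cells, which present antigen from dead cells to CD8+ T cells. Irf8, Tcf4 and Ly6d are also used by B-lineage cells, so their RNA does not mark a dendritic cell in a B-cell culture.

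The libraries were made from colonies that grew from mouse bone marrow in methylcellulose medium for B cells and were harvested after 1 week, at passage 1. By their titles, 3 cultures came from Ts1Rhr mice and 3 from wild-type mice. Ts1Rhr is an engineered strain in which a stretch of chromosome 16, the counterpart of part of human 21q22, is present once more than normal. The field for genotype gives Ts1Rhr for all 6. The 6 value columns, p1A1 to p1A3 and p1C1 to p1C3, hold codes that match the passage, and their letters are not explained. No column was therefore tied to a genotype, the libraries were treated as 1 set, and no test between genotypes was made. None of the 10 genes lies on chromosome 16. The labels do not say whether replicates came from separate mice.

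Levels are given in FPKM, the fragments per kilobase of transcript per 1000000 mapped fragments, so that values can be compared between genes. Sums over a library ran between 367094 and 413152 FPKM. Spearman correlations between libraries, taken across all symbols, ran between 0.979 and 0.984. Total fragments were not given, but the steps between low values showed that p1A3 held 0.514 times the fragments of the deepest library, p1C1, while the other libraries held at least 0.840 times. Bulk RNA cannot tell fewer cells of a type from less RNA per cell.

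The 3 genes that B-lineage cells also use were high. The other plasmacytoid genes of the 10, Siglech, Ccr9, Pacsin1 and Runx2, lay near 1 FPKM or a few times above it. The receptors of type 1 conventional cells were lowest. Of the 10 genes, 6 were at or above 1 FPKM in every library: Ly6d, Irf8, Tcf4, Siglech, Ccr9 and Runx2. Over all symbols the share was 45.7%. Clec9a and Xcr1 stayed under 1 FPKM in all 6 libraries, and Pacsin1 and Batf3 passed it in some.

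**Figure D1:**
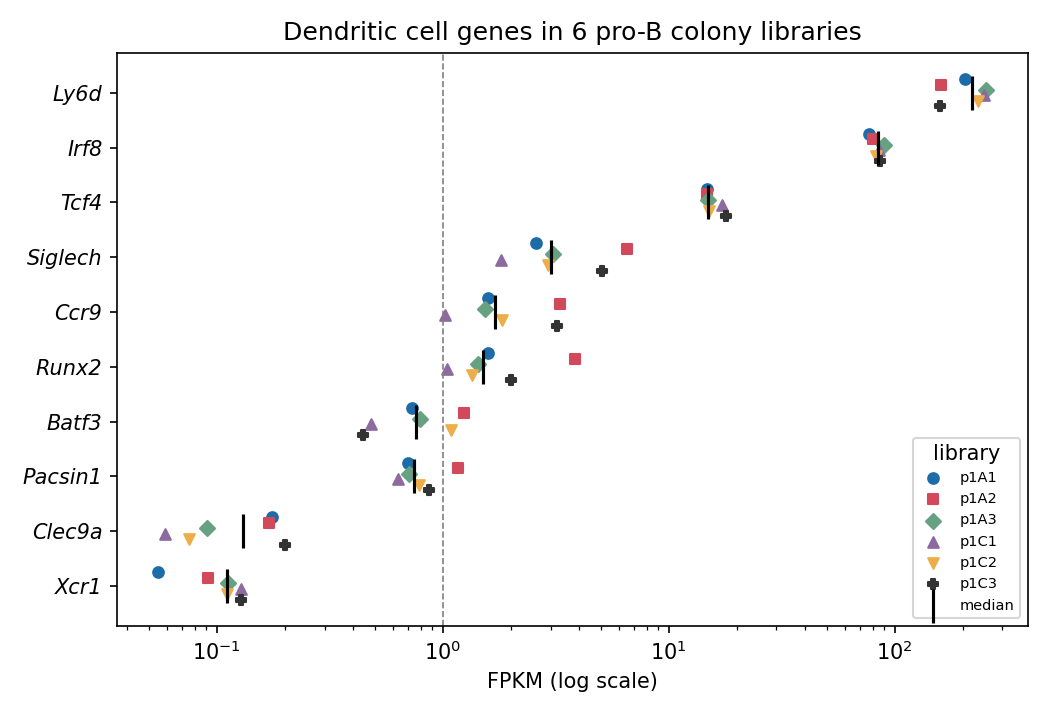
FPKM of the 10 dendritic cell genes (rows) in each of the 6 libraries (symbols), on a log scale, with a black bar at the median and a dashed line at 1 FPKM. Ly6d, Irf8 and Tcf4 have medians of 220, 84.1 and 15.0 FPKM, and Clec9a and Xcr1 lie at or under 0.200 FPKM in every library.

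Of the 4 transcription factors, Irf8 and Tcf4 were high and steady and Runx2 and Batf3 were low and less even. Irf8, an interferon regulatory factor that type 1 conventional dendritic cells require and that B-lineage cells also express, had 77.1 FPKM in p1A1, 80.1 in p1A2, 89.5 in p1A3, 85.6 in p1C1, 82.6 in p1C2 and 86.3 in p1C3. Its highest library was 1.16 times its lowest, against a median ratio of 1.31 over 1307 symbols with a median within 2-fold of its own. Irf8 thus varied little, and its median ranked at the 96.8th percentile of all symbols. In the GRCm38 annotation Irf8 lies on chromosome 8, from 120736358 to 120756694 on the plus strand.

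Tcf4 encodes the E protein E2-2, which plasmacytoid dendritic cells need for their identity and which B-lineage cells also use. It had 14.7 FPKM in p1A1, 14.7 in p1A2, 14.9 in p1A3, 17.2 in p1C1, 15.1 in p1C2 and 17.9 in p1C3. The ratio of highest to lowest was 1.22, against a median of 1.29 over 4472 symbols of like level. Tcf4 lies on chromosome 18, from 69343356 to 69689079 on the plus strand.

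Runx2, a Runt-domain factor known in plasmacytoid dendritic cells for their exit from the bone marrow, was lower. It had 1.58 FPKM in p1A1, 3.84 in p1A2, 1.43 in p1A3, 1.05 in p1C1, 1.35 in p1C2 and 2.00 in p1C3. Library p1A2 stood apart, and without it the ratio of highest to lowest was 1.91 in place of 3.65. Runx2 lies on chromosome 17, from 44495987 to 44814797 on the minus strand.

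Batf3, a leucine-zipper factor needed by type 1 conventional dendritic cells, had 0.729 FPKM in p1A1, 1.25 in p1A2, 0.793 in p1A3, 0.479 in p1C1, 1.09 in p1C2 and 0.446 in p1C3. Libraries p1A2 and p1C2 passed 1 FPKM, and p1C3 was the lowest. The ratio of 2.80 was reached by 15.7% of 1552 symbols of like level. Batf3 lies on chromosome 1, from 191097847 to 191108945 on the plus strand.

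Among the surface proteins, Ly6d was by far the most abundant. It encodes a lipid-anchored protein that marks lymphoid progenitors bound for the B lineage, and plasmacytoid precursors as well. It had 206 FPKM in p1A1, 160.4 in p1A2, 254 in p1A3, 249 in p1C1, 234 in p1C2 and 158 in p1C3. Libraries p1A2 and p1C3 were low and the other 4 lay above them. Ly6d lies on chromosome 15, from 74762056 to 74763620 on the minus strand.

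Siglech encodes Siglec-H, the sialic-acid-binding lectin that is a standard marker of mouse plasmacytoid dendritic cells. It had 2.59 FPKM in p1A1, 6.52 in p1A2, 3.09 in p1A3, 1.82 in p1C1, 2.94 in p1C2 and 5.07 in p1C3. Libraries p1A2 and p1C3 were high, p1C1 was low, and the remaining 3 lay close together. The ratio of highest to lowest was 3.59, and 1.91% of 2779 symbols of like level had a ratio as large.

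Ccr9, the chemokine receptor for CCL25, is carried by plasmacytoid dendritic cells and by early lymphoid progenitors. It had 1.58 FPKM in p1A1, 3.31 in p1A2, 1.54 in p1A3, 1.03 in p1C1, 1.83 in p1C2 and 3.21 in p1C3. As with Siglech, p1A2 and p1C3 were high and p1C1 was the lowest. Its ratio was 3.22, which 4.73% of 2031 symbols of like level reached.

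Pacsin1 encodes an adaptor of membrane traffic that plasmacytoid dendritic cells use in the interferon response to nucleic acids. It had 0.700 FPKM in p1A1, 1.17 in p1A2, 0.706 in p1A3, 0.636 in p1C1, 0.787 in p1C2 and 0.873 in p1C3. Here too p1A2 was the highest, p1C3 came next and p1C1 was the lowest. Its ratio of 1.84 was close to the median of 1.85 over 1549 symbols of like level.

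Clec9a encodes DNGR-1, a receptor for actin exposed by dead cells, and marks type 1 conventional dendritic cells and their precursors. It had 0.175 FPKM in p1A1, 0.170 in p1A2, 0.0902 in p1A3, 0.0591 in p1C1, 0.0753 in p1C2 and 0.200 in p1C3. Xcr1, the receptor for the chemokine XCL1 and the marker most specific to the same cells, had 0.0552 FPKM in p1A1, 0.0920 in p1A2, 0.112 in p1A3, 0.128 in p1C1, 0.111 in p1C2 and 0.128 in p1C3. Both genes gave a value above 0 in every library, and their libraries were ordered differently. Symbols above 0 in exactly 1 library, of which there were 872, had a median of 0.0169 FPKM. The ratios of highest to lowest, 3.38 for Clec9a and 2.31 for Xcr1, were near the medians of 3.04 and 3.12 for symbols of like level, and without p1A1 the ratio of Xcr1 was 1.39. Clec9a lies on chromosome 6, from 129408862 to 129424763 on the plus strand, and Xcr1 on chromosome 9, from 123852315 to 123862029 on the minus strand.

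Siglech, Ccr9, Pacsin1 and Runx2 had p1A2 as their highest library, p1C3 next and p1C1 as their lowest. This shared order was seen in the values and not fixed beforehand. Of the 10 genes, 7 were at or above 0.5 FPKM in every library, and these 4 were among them. Their 2 highest libraries were p1A2 and p1C3. Over the 11042 symbols at or above 0.5 FPKM in every library the share with that pair on top was 3.27%. For the 15 possible pairs of libraries that share ran between 1.16% and 23.9%. The limit of 0.5 FPKM is lower than the 1 FPKM of the counts above, which Pacsin1, with a lowest value of 0.636 FPKM, did not pass. For these shares the limit was not varied, and the symbols were not matched for level. In Ly6d, p1A2 and p1C3 were the 2 lowest libraries, which held for 7.05% of the symbols. The remaining genes, Irf8, Tcf4, Batf3, Clec9a and Xcr1, each had another pair on top.

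**Figure D2:**
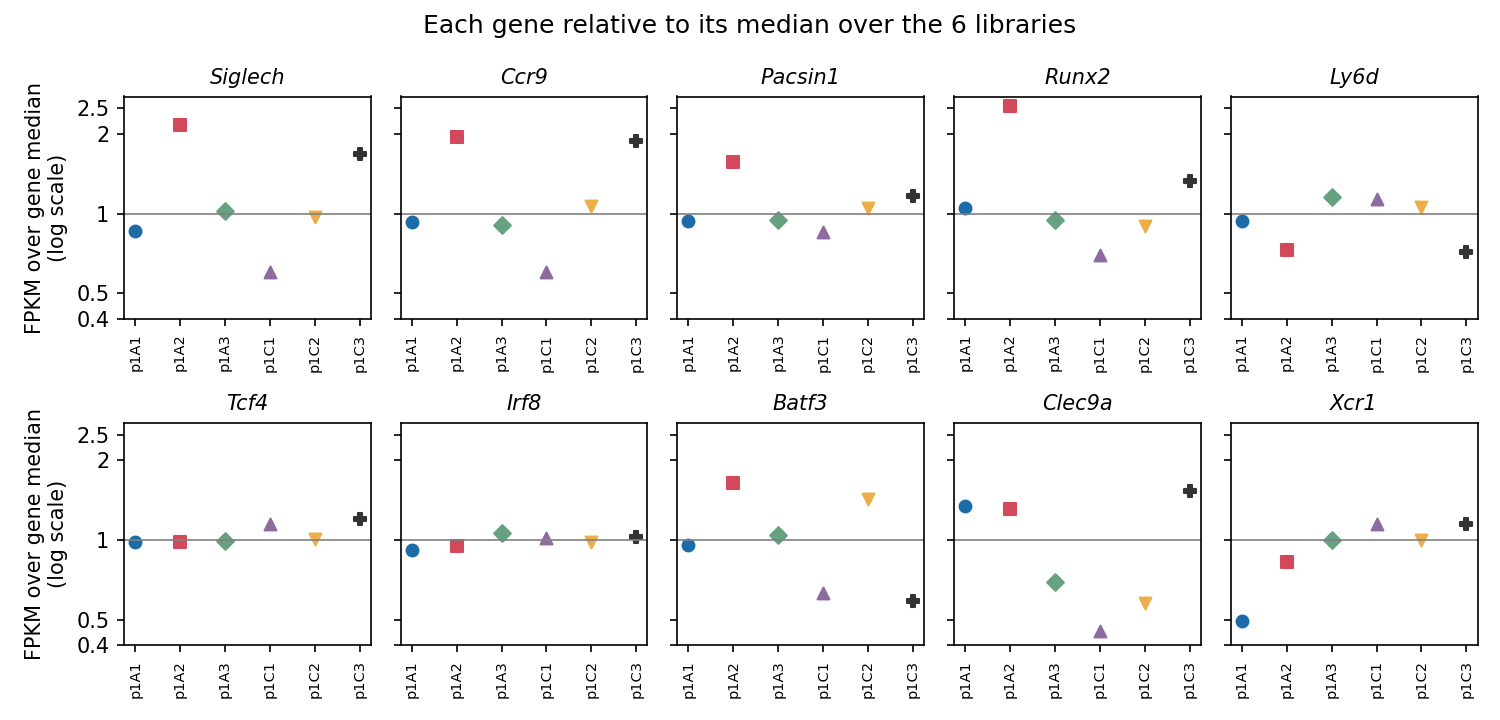
FPKM of each dendritic cell gene divided by its own median over the 6 libraries, on a log scale, with a grey line at 1. Siglech, Ccr9, Pacsin1 and Runx2 are highest in p1A2 and next in p1C3, Ly6d is lowest in those libraries, and Irf8 and Tcf4 stay near the line.

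Of the 6 genes at or above 1 FPKM in every library, 3 had a highest library at least 2 times the lowest: Siglech, Ccr9 and Runx2. Among the 10302 symbols that passed the same level the share was 6.26%. Those symbols were not matched for level above that limit. Over symbols of like level, ratios as large were held by 1.91% for Siglech, 4.73% for Ccr9 and 3.93% for Runx2. Without p1A2 the ratios were 2.79 for Siglech, 3.13 for Ccr9 and 1.91 for Runx2, so the count was then 2.

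The promoters of Siglech, Ccr9 and Pacsin1 are shown because these genes shared the order of libraries and are the plasmacytoid surface and traffic genes among the 10. Each run covers 190 bases, from 250 to 61 bases before the RefSeq start on GRCm38.p6, and overlaps no exon in the GENCODE annotation. Capitals mark CAGNTG, a form of the E-box that E proteins such as Tcf4 bind, searched on both strands. The Siglech run is chr7:55767934-55768123, that of Ccr9 is chr9:123766961-123767150 and that of Pacsin1 is chr17:27684989-27685178, all on the plus strand. The Ccr9 and Pacsin1 runs lie within the GENCODE bounds of their genes, which begin at 123678439 and 27655509. Starts further upstream were not searched.
Siglech: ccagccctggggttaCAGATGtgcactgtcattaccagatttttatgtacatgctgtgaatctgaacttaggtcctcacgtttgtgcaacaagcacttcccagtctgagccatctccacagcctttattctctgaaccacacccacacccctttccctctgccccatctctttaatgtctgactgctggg
Ccr9: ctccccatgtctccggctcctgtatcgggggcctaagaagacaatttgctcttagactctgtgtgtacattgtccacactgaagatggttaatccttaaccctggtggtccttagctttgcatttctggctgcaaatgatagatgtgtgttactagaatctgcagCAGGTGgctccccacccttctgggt
Pacsin1: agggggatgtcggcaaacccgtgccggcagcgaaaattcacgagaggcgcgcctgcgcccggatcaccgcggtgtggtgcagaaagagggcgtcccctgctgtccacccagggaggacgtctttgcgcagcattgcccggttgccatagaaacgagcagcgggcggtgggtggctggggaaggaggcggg
The Siglech and Ccr9 runs hold 1 match each, and the Pacsin1 run holds none. The motif is common: 36.8% of 32851 RefSeq windows of the same length and place hold it. A match is a description of letters and not a site.

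Other plasmacytoid genes were read from a list of 23. At or above 1 FPKM in every library were 15 of them, beside 45.7% of all symbols. Another 5 were under 1 in every library and 3 lay between. The median of their medians was 5.22 FPKM, against 0.584 FPKM over all symbols, of which 5289 were at 0 in every library. The list was not split by which other cells express its genes. The highest were Spib at 150.2 FPKM, an Ets factor of B cells and plasmacytoid cells, Pld4 at 47.6, an endolysosomal nuclease, and Epha2 at 28.6, an ephrin receptor. The lowest were Havcr1 at 0.261, Cd209d at 0.0591 and Klk1 at 0.0159 FPKM. Library p1A2 was the highest for 12 of the 23. Over the symbols at or above 0.5 FPKM in every library, p1A2 was the highest for 23.0% and the lowest for 38.8%. In lists described below, p1A2 was the highest for 6 of 11 other type 1 conventional genes, 6 of 9 common conventional genes and 6 of 12 activated genes. Library p1C1, the lowest for Siglech, Ccr9, Pacsin1 and Runx2, was the lowest for 3 of the 23, beside 17.3% of those symbols. Spib was lowest in p1A2, at 109.6 FPKM, and highest in p1C1, at 214 FPKM.

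Other type 1 conventional genes gave a mixed picture. At or above 1 FPKM in every library were 6 of 11, beside 45.7% of all symbols, and 5 were under 1 in every library. Id2, an inhibitor of E proteins that many blood cells express, had a median of 113 FPKM. Wdfy4, which type 1 conventional cells need for cross-presentation and which B cells also express, had 80.5, and Naaa, a lysosomal amidase, had 8.06. Itgae, the integrin chain CD103, Ifi205 and Snx22 had 0.310, 0.319 and 0.211 FPKM. Gcsam, the twelfth gene listed, was not used here.

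Genes of type 2 conventional cells were at or above 1 FPKM in every library in 8 of 11 cases, beside 45.7% of all symbols. Library p1A2 was the highest for 9 of the 11, beside the 23.0% of symbols given above. Sirpa, an inhibitory receptor shared with macrophages, had a median of 101 FPKM, and Itgam, an integrin chain shared with macrophages and granulocytes, had 35.3. Irf4, a factor shared with B cells, had 42.0 FPKM. The lowest were the surface proteins Esam, Cd209a and Clec4a4, with medians of 1.07, 0.636 and 0.584 FPKM. The genes between these and Itgam had medians from 2.80 to 6.63 FPKM.

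Genes common to conventional dendritic cells had medians between 0.135 and 340.4 FPKM. This list, too, was not split by which other cells express its genes, so a high level in it does not mark a dendritic cell. Cd74, the invariant chain of class II antigen presentation, had a median of 340.4 FPKM, H2-Aa, a class II chain, had 94.7 and Dpp4, a surface peptidase, had 69.4. Zbtb46, the zinc-finger factor that marks the conventional dendritic lineage, had between 0.0869 and 0.171 FPKM with a median of 0.135. Flt3, the receptor that drives dendritic cell development from progenitors, had 1.33 FPKM in p1A1, 3.73 in p1A2, 1.93 in p1A3, 0.992 in p1C1, 1.47 in p1C2 and 2.05 in p1C3. Its highest, next and lowest libraries were those of Siglech, which was seen in the values and not sought beforehand. No other gene of this list had p1A2 highest with p1C3 next. Ciita, the class II transactivator, had a median of 2.68 FPKM. Of the 9 genes, 7 were at or above 1 FPKM in every library, beside 45.7% of all symbols.

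Activation genes of dendritic cells were at or above 1 FPKM in every library in 6 of 12 cases, close to the 45.7% of all symbols. Nor was this list split by which other cells express its genes. Socs2, a suppressor of cytokine signalling, had a median of 83.8 FPKM, Cd274, the ligand PD-L1, had 14.4 and Ccr7, the receptor for homing to lymph nodes, had 12.8. Cd80, a costimulatory ligand, had 1.07 FPKM. Ccl17, a chemokine, and Il12b, the p40 chain of interleukin-12, had medians of 0.0720 and 0.0251 FPKM and were listed at 0 in some libraries.

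**Figure D3:**
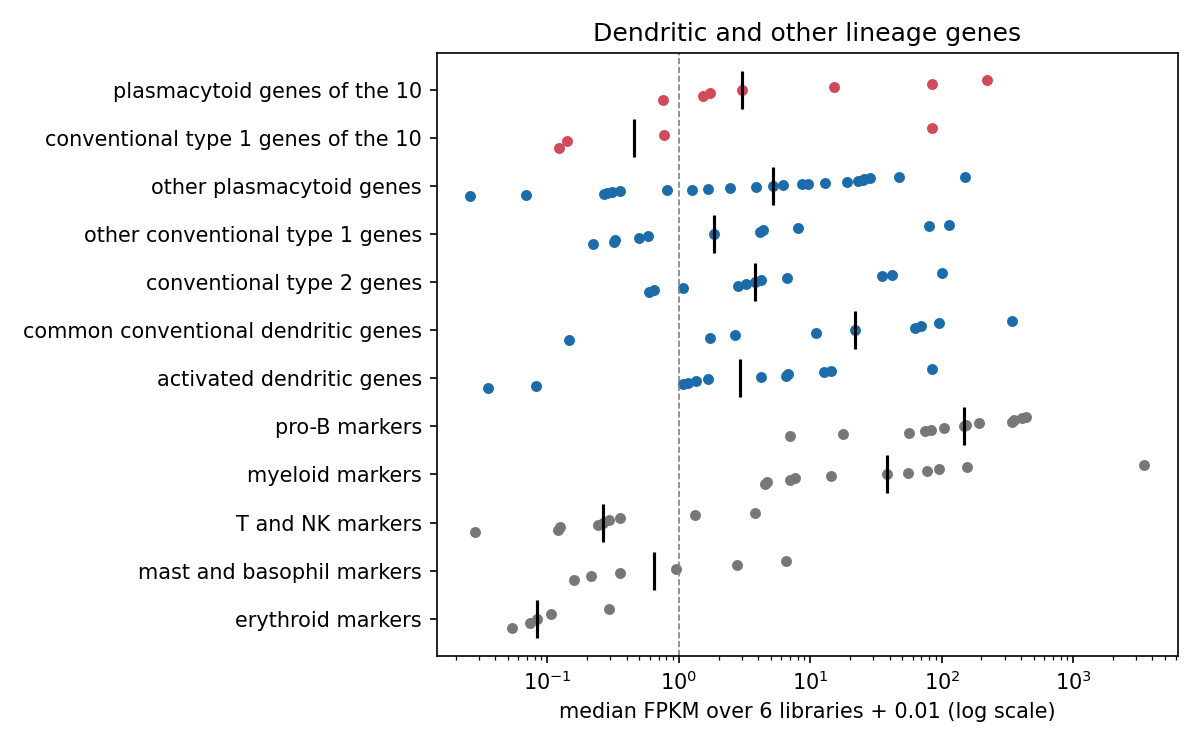
Median FPKM over the 6 libraries plus 0.01, on a log scale, for every gene of each list (points), with a black bar at the list's median and a dashed line at 1 FPKM. The plasmacytoid genes of the 10 have a median of 3.01 FPKM and the type 1 conventional genes 0.446 FPKM, beside 149 FPKM for pro-B markers and 38.4 FPKM for myeloid markers.

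The labelled cell type was checked against its markers. All 13 pro-B markers were at or above 1 FPKM in every library, beside 45.7% of all symbols. The median of the markers' medians was 149 FPKM. Vpreb1 and Igll1, the surrogate light chain, had 437 and 351 FPKM, and Cd79a, a chain of the B-cell receptor, had 408 FPKM. The lowest were Ebf1, a factor that sets B-cell identity, at 56.6 FPKM, and Rag1 and Rag2, the recombinase that joins immunoglobulin gene segments, at 17.7 and 7.03 FPKM. All 11 myeloid markers used were at or above 1 FPKM in every library too, led by Lyz2, lysozyme, at 3443 FPKM, Cd68, a lysosomal protein of macrophages, at 156 FPKM and S100a8, a calcium-binding protein of granulocytes and monocytes, at 96.0 FPKM. The lowest were Cd14 at 6.99, Csf3r at 4.64 and Elane at 4.48 FPKM. The cultures therefore held myeloid RNA beside that of pro-B cells. Lists of T and NK, mast and basophil, and erythroid markers had medians of 0.253, 0.641 and 0.0733 FPKM. Thy1, at 3.75 FPKM, led the T and NK list, followed by Nkg7 at 1.31 and Cd3d at 0.345, and Klrb1c, Gata3 and Ncr1 were lowest at 0.114, 0.110 and 0.0179 FPKM. Kit, a receptor of progenitors and mast cells, led the mast and basophil list at 6.53 FPKM, with Mcpt8 at 2.74, Cpa3 at 0.938, Gata2 at 0.344, Fcer1a at 0.204 and Ms4a2 at 0.149. The erythroid list held Hbb-b1 at 0.284 FPKM, Gata1 at 0.0956, Klf1 at 0.0733, Epor at 0.0635 and Hba-a1 at 0.0433.

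The summed pro-B markers came to 1999.8 FPKM in p1A1, 1682 in p1A2, 2525 in p1A3, 2477 in p1C1, 2542 in p1C2 and 2417 in p1C3. Library p1A2 was the lowest and p1A1 the next, and p1C3, the other library low in Ly6d, came after these, close to p1C1. The summed myeloid markers came to 3963 FPKM in p1A1, 5229 in p1A2, 2881 in p1A3, 2838 in p1C1, 4208 in p1C2 and 3899 in p1C3. Without Lyz2 the sums were 518 FPKM in p1A1, 793 in p1A2, 425 in p1A3, 377 in p1C1, 570.5 in p1C2 and 459 in p1C3. Myeloid RNA was thus highest in p1A2 and lowest in p1C1, as were Siglech, Ccr9, Pacsin1 and Runx2, but p1C3, next in those genes, was below p1A1 and p1C2 in both myeloid sums. All 11 myeloid markers had p1A2 as their highest library, beside 23.0% of symbols. The part of myeloid cells in the levels of these genes was not tested.

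**Figure D4:**
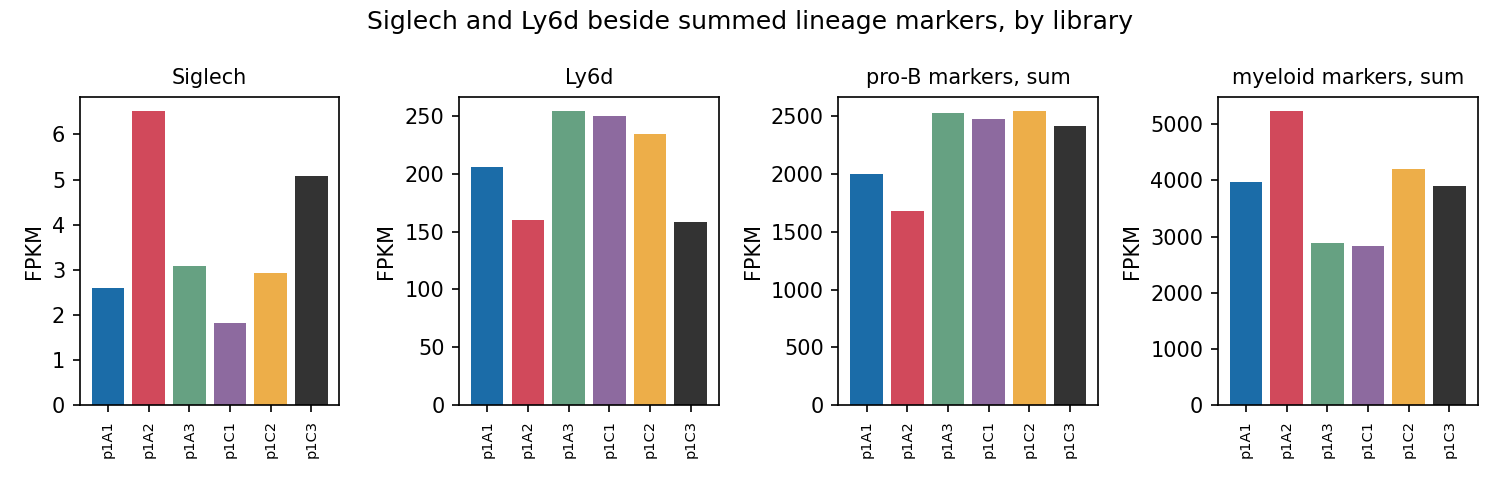
FPKM of Siglech and Ly6d and summed FPKM of 13 pro-B and 11 myeloid markers, 1 bar per library on linear axes that start at 0. Siglech is highest in p1A2 and p1C3, Ly6d is lowest there, and the myeloid sum is highest in p1A2 with 5229 FPKM.

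Some of these genes share exonic bases with a neighbour in the GENCODE annotation, and the labels do not say whether strand was kept. For Ccr9, on chromosome 9 from 123678439 to 123784330, 18.8% of exonic bases are shared with AC165425.1 on the opposite strand. The share with Gm17200, on the same strand, was 2.62%. For Runx2 the share with Runx2os1, on the opposite strand, was 5.87%. For Clec9a, whose median was 0.130 FPKM, the share with Clec1b on the same strand was 5.59%. Clec1b had a median of 0.266 FPKM. Siglech, on chromosome 7 from 55768178 to 55778925, and Pacsin1, on chromosome 17 from 27655509 to 27711482, share none.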

How the data were processed

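RNA of 6 cultures was sequenced on an Illumina HiSeq 2000 from TruSeq RNA libraries, per the labels' protocols. FPKM values were computed by the authors and deposited as 1 table of 23021 rows, with a column for each library. TopHat2 2.0.7, Cufflinks 2.0.0, Bowtie2 and FastQC appear, with no role given, in the submitters' processing notes. Those notes list mm9 as well as GRCm38 without saying which was used where. Rows of 1 symbol were summed. Columns were tied to the set of 6 cultures by the passage in their names and to no genotype, so no test was run. Values were tabulated with Python 3.11.15 and pandas 2.3.3. Relative depth was read from the steps between values under 0.08 FPKM, a method checked on simulated data; totals are unknown. Symbols of like level have a median within 2-fold and no value of 0. All 10 genes are described, and from each further list the 3 highest and 3 lowest by median. The genes and lists were chosen with earlier results of these data known. One listed erythroid marker is not reported here. Positions come from GENCODE M21 and promoters from RefSeq; 8 of the 10 genes matched a promoter. Alternatives changed the threshold, scaling, pseudocount, filter, summing and libraries used.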

Additional observations from a re-analysis of the deposited data

Results flagged for a closer look

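Of 79 levels and sums examined, 9 had a library separated from the next by more than 0.625 of the whole range. Chance flags about 1 in 20 where values are normal. The 79 come from the same 6 libraries and are not independent, so their count cannot be judged by that rate. Among the 10 dendritic cell genes the one flagged was Runx2, at 3.84 FPKM in p1A2 with 2.00 FPKM in the next library. Library p1A2 also stood apart, as the highest, for Pld4 at 64.7 FPKM, Cd209a at 1.03 FPKM, H2-Aa at 139.9 FPKM, Elane at 8.98 FPKM, Csf3r at 7.84 FPKM and Cd14 at 11.9 FPKM. Elane, Csf3r and Cd14 are granulocyte and monocyte genes. Library p1A3, the shallowest, was listed at 0 for Ncr1. It also had the highest sum of activated dendritic genes, 151 FPKM, of which Socs2 alone held 106 FPKM. Of the 12 genes in that sum, p1A3 was the highest library for 1 and the lowest for 4. Over the symbols at or above 0.5 FPKM in every library those shares were 30.8% and 14.4%.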

How the results depend on the processing

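No paired analysis was possible because no column was tied to a genotype and no result comes from a test. With a threshold of 2 FPKM, 3 of the 10 dendritic cell genes passed in every library in place of 6, none of those had a highest library at least 2 times the lowest (0 in place of 3), and the counts of T and NK and of mast and basophil markers were 0 and 1. With 0.5 FPKM, 7 of the 10 dendritic cell genes passed, and 8 did with values rescaled to a total of 1000000 per library. Of those, 3 and 4 had a highest library at least 2 times the lowest. Both settings gave counts of 10 for activated dendritic genes and 2 for T and NK markers. Fewer or more genes pass by construction of these settings. Leaving out 1 library in turn gave 1 to 2 T and NK markers, the change coming without p1A1. The count of dendritic cell genes at or above 1 FPKM was 6 whichever library was left out. Of the other values compared, 175 moved by less than the spread or by at most 1.5 times and 17 by more, most of them medians under that rescaling. Levels under about 0.2 FPKM rest on few fragments, and without fragment counts no interval could be given.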
